A study of Mus musculus with 15 samples.

Results

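The genes of the methionine cycle and of S-adenosylmethionine (SAM) metabolism were described in CT26, a mouse colon carcinoma cell line, after loss or inhibition of the arginine methyltransferase PRMT1. The 9 genes were Ahcy, Gm4737, Ahcyl1, Ahcyl2, Mat2a, Mat2b, Mtr, Mtap and Amd1. They were chosen by name, with earlier results of these data known, from the 34432 genes that both deposited tables list. Each treated group was set against its own control. All 9 passed the filter on low values in both experiments. Because the sequences of Ahcy and Gm4737 are nearly the same, the 2 genes were also added together.

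The knockdown experiment compared a hairpin against Prmt1 (shPrmt1, 3 libraries) with a control hairpin (shControl, 3 libraries). By the study's methods, the hairpin was carried by a lentivirus under a doxycycline-inducible promoter in a puromycin-selected line, and was induced with DOX for 3 days. Whether DOX was also given to the shControl cells is not stated in the labels. In the inhibitor experiment, 3 libraries each came from cells given vehicle, MS023 or GSK3368715. MS023 and GSK3368715 inhibit type I arginine methyltransferases, of which PRMT1 is one, and each was used at 6 µM for 48 hours. No label names separate cultures for the libraries of a group, so p-values measure the spread between these libraries, which may be technical.

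SAM donates the methyl group in nearly all methylation reactions of the cell, arginine methylation by PRMT1 included. It is made from methionine by methionine adenosyltransferase, and each methyl transfer leaves S-adenosylhomocysteine, an inhibitor of methyltransferases that must be hydrolysed to homocysteine. Homocysteine is methylated back to methionine with a methyl group from folate, or enters transsulfuration towards cysteine. A side branch decarboxylates SAM for the synthesis of polyamines and returns the sulfur of the by-product, methylthioadenosine, to methionine.

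The libraries held between 17284091 and 29233738 reads on genes in the knockdown experiment and between 40119305 and 93697833 in the inhibitor experiment, and the shPrmt1 libraries were less deep (20179259 reads at most) than 2 of the 3 shControl libraries. Library shPrmt1 2 stood apart from the other 2 of its group, with a chi-square per degree of freedom of 22.6 and 21.4 over genes against 4.29 between those. Vehicle 2, in the control group of both inhibitors, did so as well, with 74.95 and 43.75 against 20.4. The GSK3368715 pairs had 28.9 to 37.8 and the MS023 pairs 9.78 to 22.9. This measure was not adjusted for depth. Prmt1 itself, on chromosome 7 of mm10 from 44975989 to 44986568, had 5601, 5717 and 5620 normalized counts in shControl and 669, 761 and 683 in shPrmt1. It had 14064 to 16107 in the 9 libraries of the inhibitor experiment. Of 10 markers of colon epithelium, Krt18 and Krt20 had a median of at least 50 normalized counts in both experiments, Epcam was at 0 in every library and Cdh1 reached 2.29 at most. Of 7 markers of other cells, Cd3e was at 0 in every library and Ptprc reached 6.11 at most, while Col1a1 (1853 or more) and Pdgfra (136 or more) were present in every library. The summed level of the epithelial list was 729 to 812 normalized counts in shControl and 544 to 670 in shPrmt1, and 1286 to 1449 with vehicle, 1789 to 1879 with MS023 and 1450 to 1617 with GSK3368715. That of the list of other cells was 2126 to 2748 in shControl, 3254 to 5128 in shPrmt1, 19104 to 19998 with vehicle, 11835 to 15715 with MS023 and 17480 to 20126 with GSK3368715. Krt18 made up most of the epithelial sum (median 508 in the knockdown and 1156 in the inhibitor experiment). Col1a1 made up most of the other sum (median 2694 and 16589). The experiments were normalized separately, so these levels are compared only within each. The part of these shifts in the results that follow was not tested.

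Ahcy encodes S-adenosylhomocysteine hydrolase, the enzyme that clears the product of every SAM-dependent methylation. Ahcy (ENSMUSG00000027597) lies on chromosome 2 of mm10 from 155059310 to 155074497 on the minus strand, and its transcript Ahcy-201 has 10 exons and 2543 bases. Gm4737 (ENSMUSG00000048087) lies on chromosome 16 from 46152985 to 46155077, also on the minus strand, and its transcript has 1 exon of 2093 bases, which the annotation lists as protein-coding. The 2 transcripts aligned over 2083 bases without a gap and differed at 6 of them, an identity of 99.7%. Counted from 1 at the 5′ end of the Ahcy transcript, with the Ahcy base first, the differences were C564T, G579A, C1155T, C1173T, A1712T and G1716T. The first 4 are in the coding sequence, which aligned over all its 1296 bases, and all 4 fall at the third position of a codon. Both pairs of coding differences are shown, since these are the bases on which a coding read can be assigned to one gene or the other. Each sequence is 50 bases of mm10 transcript in the sense direction, with the differing bases in capitals. The first pair of lines runs from base 546 to 595 of the Ahcy transcript and the second from 1139 to 1188.
Ahcy, first window: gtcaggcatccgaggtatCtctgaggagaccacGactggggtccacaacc
Gm4737, first window: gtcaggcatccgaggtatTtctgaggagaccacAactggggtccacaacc
Ahcy, second window: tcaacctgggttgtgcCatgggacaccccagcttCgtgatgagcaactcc
Gm4737, second window: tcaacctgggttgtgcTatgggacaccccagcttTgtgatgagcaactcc

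Ahcy also has 419 bases at its 3′ end that Gm4737 lacks. Of the 31-base words of the Gm4737 transcript, 95.6% occur in transcripts of other genes as well, mostly Ahcy, and of those of Ahcy 79.4% do. A further copy, the processed pseudogene Gm9826, covers 51.1% of the Ahcy transcript at 99.2% identity and had at most 11 normalized counts in any library. In the 250 bases before the RefSeq start (GRCm38.p6), Ahcy has 9 CG dinucleotides and Gm4737 has 0, where the median over 32851 promoters is 6.

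The deposited tables gave most of the reads of this sequence to Gm4737. In shControl, Gm4737 took 90.8%, 91.6% and 87.9% of the reads of both genes, and in shPrmt1 97.8%, 97.0% and 97.3%. The groups did not overlap, and the means of 90.1% ± 1.94 and 97.4% ± 0.382 (SD, n = 3) differed by 7.30 percentage points, with p = 0.1 in a two-sided exact permutation test, the smallest value that 3 against 3 allows. In the inhibitor experiment the share was 95.4%, 94.6% and 98.3% with vehicle, 93.7%, 97.1% and 95.03% with MS023 and 94.9%, 95.3% and 93.1% with GSK3368715. These groups overlapped, and the exact permutation p was 0.6 for MS023 and 0.4 for GSK3368715. Each share rested on at least 4870 reads, and the exact 95% binomial interval was at most 1.43 points wide, which covers counting error only and not the division of the reads by the quantification. Within the aligned part, the division rests on 6 differing bases of the reference. Reads of Ahcy can also be placed by the 419 bases at its 3′ end that Gm4737 lacks. Differences between the CT26 genome and the reference were not analysed here. For that reason the sum of both genes is given beside each single value.

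**Figure D1:**
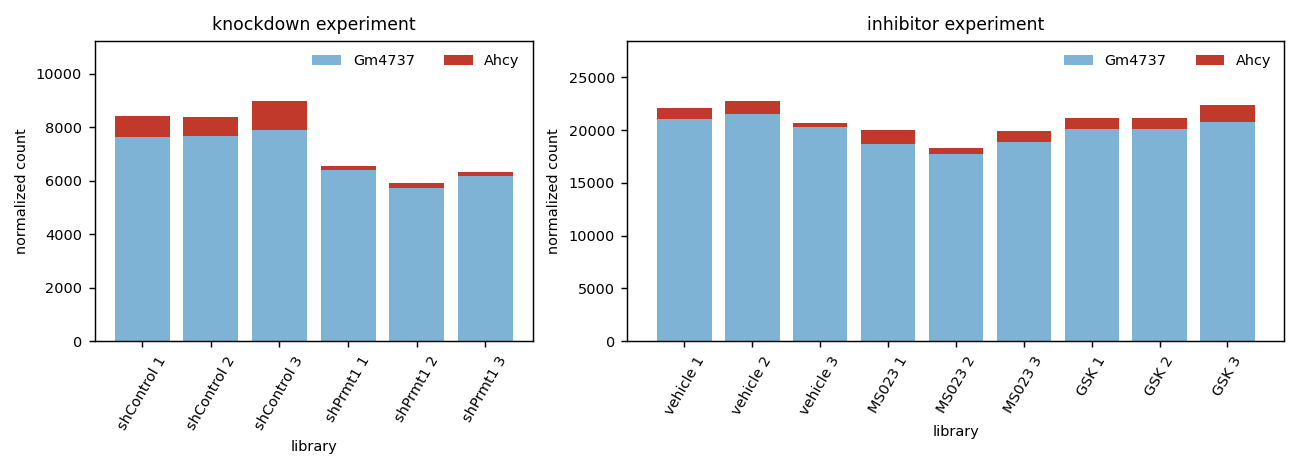
Normalized counts (linear axis from 0) listed under Gm4737 (blue) and under Ahcy (red, stacked on top) in each of the 15 libraries, the knockdown experiment on the left and the inhibitor experiment on the right (GSK is GSK3368715). The red segment is smallest in the 3 shPrmt1 libraries, where Gm4737 holds 97.0% to 97.8% of the reads, and the whole bar is lower in shPrmt1 (5903 to 6540) than in shControl (8399 to 8990).

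In shPrmt1 cells, the S-adenosylhomocysteine hydrolase genes were lower than in shControl cells, and none of the other 7 genes passed the test. At an adjusted p under 0.05 in limma, on log2(normalized count + 1), 2 of 9 genes were called, both lower. Of all 11485 genes tested 14.7% were called, 7.5% higher and 7.17% lower. The median log2 fold change of the 9 genes was 0.12 and that of all genes tested was 0.00. Changes of lowly counted genes are understated by the added count of 1.

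Ahcy had 777, 708 and 1089 normalized counts in shControl and 145, 176 and 170 in shPrmt1. Every shPrmt1 library was far under every shControl library, and the log2 fold change was -2.36 (SE 0.16, adjusted p = 0.00012). Gm4737 had 7632, 7691 and 7901 in shControl and 6395, 5727 and 6173 in shPrmt1. These groups were also apart, with a log2 fold change of -0.35 (SE 0.06, adjusted p = 0.0077). The sum of both genes was 8409, 8399 and 8990 in shControl and 6540, 5903 and 6344 in shPrmt1, or 8599 ± 338 against 6262 ± 326 (SD, n = 3). The sum fell by 0.46 on the log2 scale (95% interval -0.60 to -0.32, adjusted p = 0.0025), and this call was kept in all 17 alternatives, with values from -0.49 to -0.42. The large change listed for Ahcy alone depends on the division of reads, and the change of the sum does not.

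Mat2a encodes the catalytic subunit of methionine adenosyltransferase, which makes SAM outside the liver, and Mat2b its regulatory subunit. Mat2a lies on chromosome 6 from 72432799 to 72439558 and had 5280, 5363 and 5322 normalized counts in shControl and 5552, 6236 and 5605 in shPrmt1. The shPrmt1 libraries were all above the shControl libraries, but the log2 fold change of 0.12 (95% interval -0.02 to 0.26) had an adjusted p of 0.22. Mat2b, on chromosome 11 from 40679314 to 40695203, had 1140, 1153 and 1152 in shControl and 1191, 1456 and 1136 in shPrmt1. Its groups overlapped, and the log2 fold change was 0.13 (adjusted p = 0.41).

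Ahcyl1 and Ahcyl2 encode proteins related to the hydrolase that are not known to hydrolyse S-adenosylhomocysteine, and Ahcyl1 is best known as a partner of the inositol trisphosphate receptor. Ahcyl1, on chromosome 3 from 107663118 to 107696560, had 9427, 9584 and 9236 normalized counts in shControl and 10206, 11711 and 10461 in shPrmt1. The groups were apart, and the log2 fold change of 0.19 (SE 0.06) had an adjusted p of 0.080. Ahcyl2, on chromosome 6 from 29768011 to 29912310, had 1255, 1369 and 1333 in shControl and 1334, 1766 and 1349 in shPrmt1. Its log2 fold change was 0.16 (adjusted p = 0.37), with overlap between the groups.

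Mtr encodes the cobalamin-dependent methionine synthase that methylates homocysteine. It lies on chromosome 13 from 12182712 to 12258113 and had 1146, 1161 and 1238 normalized counts in shControl and 1238, 1381 and 1203 in shPrmt1, a log2 fold change of 0.11 (adjusted p = 0.38). Mtap encodes the phosphorylase that starts the salvage of methylthioadenosine and is often deleted in human tumors. It lies on chromosome 4 from 89137122 to 89181081 and was expressed in every library, with 4562, 4747 and 4361 in shControl and 4144, 4827 and 3996 in shPrmt1, a log2 fold change of -0.08 (adjusted p = 0.53). Both genes overlapped between the groups.

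Amd1 encodes the decarboxylase that commits SAM to polyamine synthesis. It lies on chromosome 10 from 40287458 to 40302186 and had 4498, 4706 and 4444 normalized counts in shControl and 4759, 5554 and 4615 in shPrmt1, a log2 fold change of 0.12 (adjusted p = 0.31). Amd2, a single-exon copy on the same chromosome from 35708675 to 35711892, is 99.7% identical to Amd1 over the alignment, and 92.3% of the 31-base words of Amd1 occur in other genes, mostly Amd2. Amd2 was listed with 536 to 593 normalized counts in shControl and 594 to 678 in shPrmt1. Added together, the log2 fold change of Amd1 and Amd2 was 0.13 (adjusted p = 0.28), so that the choice between them did not change the outcome.

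Library shPrmt1 2 was the highest of its group for 8 of the 9 genes, all but Gm4737. The share of all genes that were highest in this library was not counted. In other groups, MS023 1 was the highest for 7 of the 9 genes, and shControl 2 and vehicle 2 for 6 each. Without library shPrmt1 2, 4 of 9 genes were called, where 21.7% of the 11368 genes tested in that fit were called. These were Ahcy and Gm4737, both lower, Mtap, lower (log2 fold change -0.16, adjusted p = 0.0498), and Ahcyl1, higher (0.13, adjusted p = 0.045). The exons of Mat2a share 508 bases with Particl and those of Ahcyl2 share 288 bases with 4930528J11Rik, both on the other strand. Whether the counting used strand is not given in the sources used here, so reads from the 2 strands cannot be told apart.

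**Figure D2:**
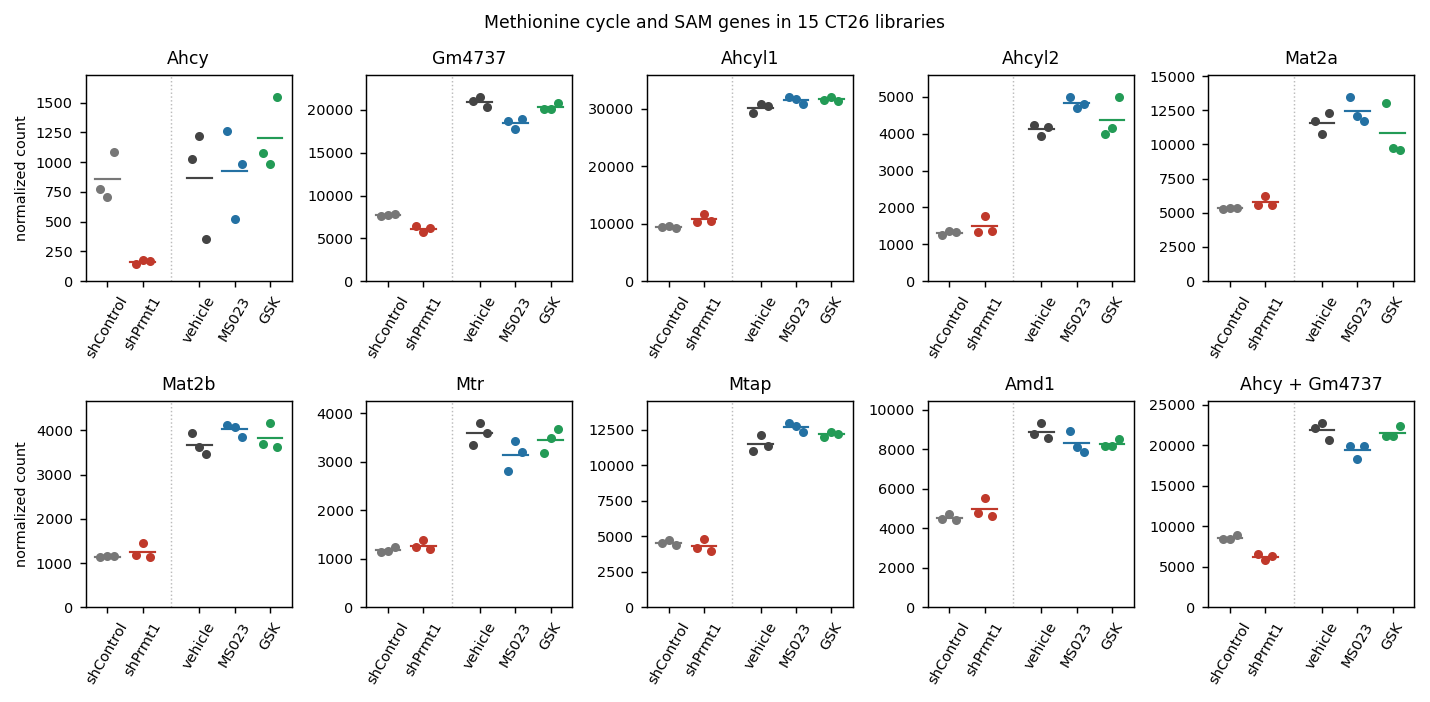
Normalized counts (linear axes from 0 that differ between panels) of the 9 genes and of the sum of Ahcy and Gm4737. Each point is a library and each line is the mean of 3, with the knockdown experiment left and the inhibitor experiment right of the dotted line (GSK is GSK3368715); the 2 were normalized separately, so levels are compared within each. For Ahcy, Gm4737 and their sum the shPrmt1 points are all under the shControl points, and the sum with MS023 (18303 to 19975) is under that with vehicle (20663 to 22766).

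With MS023, Gm4737 was lower than with vehicle and no other of the 9 genes passed the test. Thus 1 of 9 genes was called, where 27.9% of all 13014 genes tested were called, and the median log2 fold change was 0.10 against 0.00 over all genes. Gm4737 had 21086, 21546 and 20306 normalized counts with vehicle and 18715, 17778 and 18911 with MS023. The MS023 libraries were all lower, by 0.18 on the log2 scale (log2 fold change -0.18, SE 0.05, adjusted p = 0.016). This call was lost only without MS023 2 among 20 alternatives (log2 fold change -0.16, adjusted p = 0.076). In these alternatives 0 to 3 of the 9 genes were called, where 15.3% to 31.4% of all genes tested were called.

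Ahcy had 1027, 1220 and 357 normalized counts with vehicle and 1260, 525 and 989 with MS023. The spread within each group was wider than the difference between them, and the log2 fold change of 0.18 had a 95% interval from -0.77 to 1.13. It turned to -0.37 without vehicle 3 and to -0.09 without MS023 1. The sum of both genes was 22113, 22766 and 20663 with vehicle and 19975, 18303 and 19900 with MS023. The sum was lower in every MS023 library, with a log2 fold change of -0.17 (95% interval -0.30 to -0.05, adjusted p = 0.044). It passed the test in only 7 of 21 alternatives, in which the value ranged from -0.21 to -0.13 and the adjusted p from 0.021 to 0.17.

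Ahcyl2 had 4240, 3938 and 4170 normalized counts with vehicle and 5003, 4699 and 4791 with MS023. The groups were apart, but the log2 fold change of 0.23 (SE 0.08) had an adjusted p of 0.0501, and it was under 0.05 in 9 of 20 alternatives. Mtap had 10992, 12136 and 11352 with vehicle and 12961, 12771 and 12325 with MS023, again apart, with a log2 fold change of 0.14 (adjusted p = 0.055). It was under 0.05 in 4 of 20 alternatives. Mtr had 3347, 3800 and 3602 with vehicle and 2805, 3429 and 3209 with MS023, a log2 fold change of -0.19 (adjusted p = 0.12). The SAM synthase genes overlapped between the groups, with a log2 fold change of 0.10 for Mat2a (vehicle 10783 to 12266, MS023 11703 to 13496, adjusted p = 0.53) and of 0.13 for Mat2b (3470 to 3934 and 3859 to 4120, adjusted p = 0.18). For Ahcyl1 (29311 to 30791 with vehicle, 30770 to 32002 with MS023) the log2 fold change was 0.06 (adjusted p = 0.34). Amd1 (8567 to 9339 with vehicle, 7892 to 8956 with MS023) had -0.10 (adjusted p = 0.25), and added to Amd2 also -0.10 (adjusted p = 0.22).

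With GSK3368715, none of the 9 genes passed the limma test, where 9.64% of all 13014 genes tested were called. At an unadjusted p under 0.05 the number was also 0, as it was for adjusted p-values by edgeR and DESeq2. Of all genes, edgeR called 9.54% and DESeq2 13.9%, and the share at the unadjusted cut is not given here. The median log2 fold change of the 9 genes was 0.06. Gm4737 had 20056, 20118 and 20808 normalized counts, within or just under the vehicle range, and a log2 fold change of -0.05 (adjusted p = 0.60). Ahcy had 1079, 985 and 1551, with a log2 fold change of 0.63 and a wide 95% interval from -0.33 to 1.58. The sum of both was 21135, 21103 and 22359, a log2 fold change of -0.02 with a 95% interval from -0.15 to 0.10 (adjusted p = 0.86). A decrease of the size found in the knockdown lies outside this interval.

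The other 7 genes had log2 fold changes between -0.11 and 0.08 with GSK3368715. Mat2a spread most, with 13048, 9760 and 9604 normalized counts, and its log2 fold change was -0.11 (95% interval -0.35 to 0.13). Ahcyl1 (31334 to 32099) was above every vehicle library and Amd1 (8163 to 8548) under every vehicle library, by log2 fold changes of 0.07 (adjusted p = 0.37) and -0.10 (adjusted p = 0.32). Ahcyl2 (3994 to 4997), Mat2b (3627 to 4169), Mtr (3173 to 3676) and Mtap (11962 to 12360) overlapped with vehicle.

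**Figure D3:**
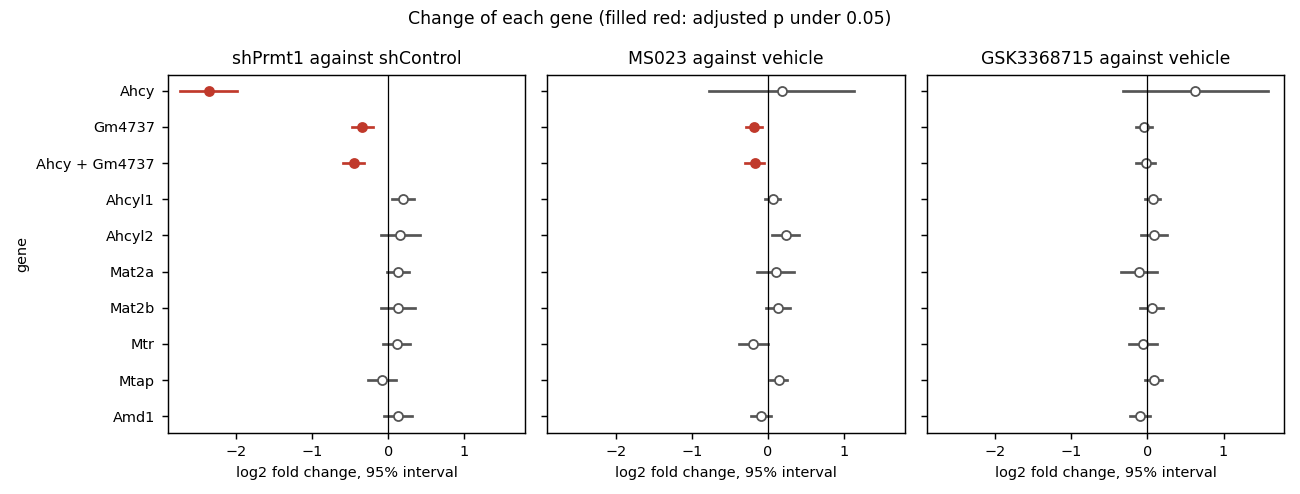
Log2 fold change of each gene and of the sum of Ahcy and Gm4737 against its control (horizontal axis), with the 95% interval of the limma fit as a line, in the 3 comparisons. Filled red points passed an adjusted p under 0.05: Ahcy, Gm4737 and the sum in the knockdown (-2.36, -0.35 and -0.46), and Gm4737 and the sum with MS023 (-0.18 and -0.17).

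The 2 compounds were given at the same dose and time, and were compared directly. None of the 9 genes differed between GSK3368715 and MS023 in limma, where 0.515% of all 13014 genes tested were called. At an unadjusted p under 0.05 the number was 1, and by edgeR and DESeq2 at adjusted p-values it was 0. Of all genes, edgeR called 0.53% and DESeq2 2.9%, and the share at the unadjusted cut is not given here. The gene with the unadjusted p under 0.05 was Gm4737, which was higher in every GSK3368715 library than in every MS023 library, by 0.14 on the log2 scale (95% interval 0.03 to 0.24, adjusted p = 0.25). The sum of both hydrolase genes differed by 0.15 (95% interval 0.03 to 0.28, adjusted p = 0.29). For the other genes the intervals of the difference lay between -0.45 (Mat2a) and 0.32 (Mtr), apart from Ahcy (-0.51 to 1.396), and no difference between the compounds was detectable at this number of libraries.

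The change in the knockdown was tested against the change with each inhibitor in a single fit of 15 libraries. Against MS023, 1 of 9 genes differed (Ahcy, by -2.54 on the log2 scale, adjusted p = 0.010), where 7.63% of 11471 genes did. Against GSK3368715, 2 of 9 differed (Ahcy by -2.99, adjusted p = 0.0052, and Gm4737 by -0.30, adjusted p = 0.029), where 4.11% of genes did. The difference of Gm4737 from GSK3368715 lost its call in 7 of 25 alternatives, those without a shControl library, vehicle 3, GSK3368715 1 or GSK3368715 3 (-0.31 to -0.28) and that without a filter, and its difference from MS023 was -0.16 (adjusted p = 0.19). The sum of Ahcy and Gm4737 was lower in the knockdown than with GSK3368715, each against its control, by a log2 difference of -0.44 (95% interval -0.61 to -0.26, adjusted p = 0.0068), a call kept in all 26 alternatives. Against MS023 the difference of the sum was -0.29 (95% interval -0.46 to -0.11, adjusted p = 0.047), and it was under 0.05 in 10 of 26 alternatives. Both tests use the same knockdown and vehicle libraries. For the remaining 7 genes the difference was between -0.22 and 0.30 log2 units against MS023 and between -0.16 and 0.23 against GSK3368715.

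Levels were compared between genes as normalized counts per kilobase of the longest coding transcript. In shControl the order was the sum of Ahcy and Gm4737 (4109 ± 162 per kilobase of Gm4737, SD, n = 3), Ahcyl1 (2437 ± 45.2), Mtap (1629 ± 69.1), Mat2a (1571 ± 12.3), Amd1 (1420 ± 43.3), Mat2b (559 ± 3.45), Ahcyl2 (256 ± 11.2) and Mtr (142 ± 5.97). Only Mtap (1559 to 1697) and Mat2a (1559 to 1583) overlapped among neighbours in this order. Unlike Ahcy, Amd1 was ranked without its copy, so the order and overlaps in every group hold for Amd1 alone. In shControl, Amd1 and Amd2 together had 5111 ± 167 normalized counts (SD, n = 3), against 4549 ± 139 for Amd1. Per kilobase of Amd1, that summed mean lies within the Mtap range. With vehicle the order of the genes was the same and no neighbours overlapped, from 10438 ± 514 for the sum to 432 ± 27.3 for Mtr. In shPrmt1, Mtap (1545 ± 158) came after Mat2a (1712 ± 112) and Amd1 (1553 ± 158), with overlap among these. The ranges of the sum (2820 to 3125) and Ahcyl1 (2642 to 3032) also overlapped in shPrmt1, and in library shPrmt1 2 Ahcyl1 was above the sum. By the group means, the sum was first and Mtr last in every group.

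The genes whose pattern over the 15 libraries was most like that of the sum were found by the root mean square difference of log2 values, centred on the control mean of each experiment. Among 11469 genes these were Mrps6, which encodes a protein of the mitochondrial ribosome (0.044 log2 units), the peptidase gene Dpp9 (0.058) and Naif1 (0.064). The median gene differed by 0.28, and a gene that did not change at all would differ by 0.23. Mrps6 changed by -0.44 in the knockdown, -0.19 with MS023 and -0.06 with GSK3368715.

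Around the 9 genes, 72 further genes were listed by pathway: the rest of the methionine cycle, methylthioadenosine salvage, polyamines, transsulfuration, folate, cobalamin, transport and sensing, and methyltransferases that act on small molecules. In the knockdown 11 of 59 tested were called, 2 higher and 9 lower. With MS023 24 of 63 were called, 9 higher and 15 lower, and with GSK3368715 10 of 63, 3 higher and 7 lower. These shares stand beside the 14.7%, 27.9% and 9.64% of all genes in the same comparisons, and their median log2 fold changes were 0.00, -0.08 and -0.07. Over all genes, 7.5% were called higher and 7.17% lower in the knockdown. With MS023 13.7% and 14.1% were, and with GSK3368715 5.16% and 4.47%. Without a shControl library the number called in the knockdown was 5 or 6, where 5.72% to 7.75% of all genes tested were called. With GSK3368715 it was 4 without vehicle 3 (4.52% of all genes) and 6 without GSK3368715 1 or 3 (5.84% and 6.01%). MS023 and GSK3368715 were compared with the same vehicle libraries.

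Mtrr, Mthfd1l, Mmachc and Slc1a5 were called lower in each of the 3 comparisons. How many of all genes tested were called in the same direction in all 3 was not counted. These genes, and Sqor below, are therefore named without a share over all genes beside them. Mtrr encodes the reductase that reactivates methionine synthase. It had 1077, 911 and 894 normalized counts in shControl and 697, 722 and 799 in shPrmt1, 2573, 2542 and 2523 with vehicle, 1719, 1484 and 1861 with MS023 and 1938, 2149 and 1814 with GSK3368715. No treated library reached its own controls, and the log2 fold changes were -0.37, -0.60 and -0.38 (adjusted p = 0.036, 0.00085 and 0.024 in the knockdown, with MS023 and with GSK3368715). The Mtrr call was lost in 5 of 16 alternatives in the knockdown, without a variance trend and without shControl 1, 2 or 3 or shPrmt1 1 (-0.42 to -0.29, adjusted p up to 0.14). With GSK3368715 it was lost in 5 of 20, without a trend, with the replicate block and without vehicle 3, GSK3368715 1 or GSK3368715 3 (-0.38 to -0.32, adjusted p up to 0.079). Mmachc, which processes cobalamin, the cofactor of methionine synthase, had 440, 456 and 468 in shControl and 301, 314 and 270 in shPrmt1, 1137, 1070 and 1044 with vehicle, 640, 656 and 679 with MS023 and 765, 811 and 790 with GSK3368715. Its log2 fold changes were -0.62, -0.72 and -0.46 (adjusted p = 0.0038, 8.2e-05 and 0.0034). Mtr itself was not called in any of the 3.

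Mthfd1l, which makes formate from one-carbon folate in mitochondria, fell from 3522 ± 48.2 to 2623 ± 68.4 in the knockdown (SD, n = 3, log2 fold change -0.43). It went from 11423 ± 324 with vehicle to 8075 ± 359 with MS023 (-0.50) and 8886 ± 620 with GSK3368715 (-0.36). Slc1a5, a glutamine and neutral amino acid transporter, fell from 6229 ± 227 to 4882 ± 252 in the knockdown (-0.35, a call lost without shControl 1, with -0.33 and adjusted p = 0.054), and from 17791 ± 918 with vehicle to 11579 ± 99.0 with MS023 (-0.62) and 12954 ± 613 with GSK3368715 (-0.46).

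Of the listed genes, only Sqor was called higher in all 3 comparisons. Sqor encodes the mitochondrial sulfide quinone oxidoreductase, which oxidizes hydrogen sulfide. It had 159, 154 and 136 normalized counts in shControl and 468, 514 and 480 in shPrmt1, a log2 fold change of 1.70 (adjusted p = 5.6e-05). With vehicle it had 890, 716 and 767, with MS023 1276, 1421 and 1452 (0.81, adjusted p = 0.00031), and with GSK3368715 1012, 1207 and 1059 (0.47, adjusted p = 0.016). The last call did not hold when vehicle 3 (0.45, adjusted p = 0.059) or GSK3368715 2 (0.39, adjusted p = 0.052) was left out.

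In the methionine cycle list, 3 of 10 genes tested were called in the knockdown, 2 of 11 with MS023 and 1 of 11 with GSK3368715. All of them were lower and all were among Ahcy, Gm4737 and Mtrr. Over all genes tested, 14.7%, 27.9% and 9.64% were called in these comparisons. In methylthioadenosine salvage, no gene of 5 was called by limma in the knockdown or with GSK3368715, nor by edgeR or DESeq2, and with MS023 Apip fell from 914 ± 73.8 to 704 ± 33.5 (-0.38, adjusted p = 0.015). It did not hold when vehicle 3 (-0.35, adjusted p = 0.053) or MS023 2 (-0.34, adjusted p = 0.061) was left out. At an unadjusted p under 0.05 the number in the knockdown was 0 and with GSK3368715 1, and the shares of all genes at that cut are not given here. Of all genes, edgeR called 14.9% in the knockdown and 9.54% with GSK3368715, and DESeq2 18.7% and 13.9%.

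Among 13 polyamine genes, 2 were called in the knockdown, both lower, 4 with MS023 and 2 with GSK3368715. The shares of all genes tested that were called were 14.7%, 27.9% and 9.64%, in that order. Oaz1, the antizyme that inhibits ornithine decarboxylase, had 5581, 5594 and 5717 normalized counts in shControl and 3555, 2759 and 3224 in shPrmt1, a log2 fold change of -0.83 (adjusted p = 0.00090). With the inhibitors it was -0.06 and -0.05, and the knockdown differed from MS023 by -0.77 (adjusted p = 0.0011) and from GSK3368715 by -0.78 (adjusted p = 0.0013). Azin1, the inhibitor of the antizyme, was called with both compounds instead, from 15865 ± 1150 with vehicle to 11081 ± 1000 with MS023 (-0.52) and 12867 ± 571 with GSK3368715 (-0.30), and had 0.01 in the knockdown. Sat2, related to the spermidine acetyltransferase gene, rose from 65.0 ± 2.26 to 128 ± 15.3 with MS023 (0.95) and 104 ± 18.2 with GSK3368715 (0.66). With GSK3368715 the call of Sat2 was lost in 9 of 20 alternatives, without a filter, with only the groups compared and without any 1 vehicle library, MS023 2 or 3, or GSK3368715 1 or 2 (0.57 to 0.68, adjusted p up to 0.11). That of Azin1 was lost in 7 of 20, without a trend, with the replicate block and without vehicle 2 or 3, MS023 3, or GSK3368715 1 or 3 (-0.30 to -0.25, adjusted p up to 0.096).

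In transsulfuration and cysteine metabolism, 2 of 6 genes were called in the knockdown, 3 with MS023 and 2 with GSK3368715. Of all genes tested, 14.7%, 27.9% and 9.64% were called there. Gclc, the catalytic subunit that starts glutathione synthesis, rose from 1432 ± 26.0 to 1832 ± 122 in the knockdown (0.35) and from 3526 ± 140 to 4887 ± 116 with MS023 (0.47), and had 3977 ± 105 with GSK3368715 (0.17, adjusted p = 0.057). Csad, which makes hypotaurine from cysteine sulfinate, fell from 688 ± 44.7 with vehicle to 371 ± 24.8 with MS023 (-0.89) and 524 ± 16.4 with GSK3368715 (-0.39). In limma these were the only 2 of the 63 pathway genes called between the compounds, where 0.515% of all 13014 genes tested were called. Csad differed by 0.50 and Gclc by -0.30 (GSK3368715 minus MS023, adjusted p = 0.037 for both). By edgeR 2 of the 63 were called and by DESeq2 5, beside 0.53% and 2.9% of all genes. The limma calls were lost in 12 (Csad) and 10 (Gclc) of 20 alternatives, among them those without vehicle 3 or any 1 library of either compound (0.45 to 0.55 for Csad and -0.32 to -0.28 for Gclc). The call of Gclc in the knockdown was lost without any 1 shControl library (0.34 to 0.36, adjusted p up to 0.072), and that of Csad with GSK3368715 without vehicle 3, GSK3368715 1 or GSK3368715 3 (-0.38 to -0.37, adjusted p up to 0.071).

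In the folate list, 3 of 15 genes were called in the knockdown, all lower, where 14.7% of all genes tested were called. With MS023 8 of 16 were called, 6 of them lower, beside 27.9% of all genes. With GSK3368715 2 of 16 were called, both lower, beside 9.64%. Tyms, thymidylate synthase, fell from 1467 ± 50.3 to 1066 ± 36.1 in the knockdown (-0.46) and from 3701 ± 265 to 2898 ± 80.1 with MS023 (-0.35). The reduced folate carrier Slc19a1 fell from 1353 ± 48.6 to 988 ± 35.3 with MS023 (-0.45) and 1031 ± 38.1 with GSK3368715 (-0.39), and had -0.35 in the knockdown (adjusted p = 0.062). Slc46a1, the proton-coupled folate transporter, fell from 262 ± 20.8 to 190 ± 24.3 with MS023 (-0.47), a call lost without vehicle 1, vehicle 3 or MS023 2 (-0.44 to -0.36, adjusted p up to 0.076). In the cobalamin list, Mmachc was the gene called of 7 tested in each comparison.

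Among the genes of transport and sensing, 2 of 6 were called in the knockdown, 3 of 7 with MS023 and 1 of 7 with GSK3368715. For this list and the next, the shares over all genes tested were 14.7%, 27.9% and 9.64%. Slc7a5, the large neutral amino acid transporter that takes up methionine, fell from 9527 ± 510 to 7841 ± 661 in the knockdown (-0.28, adjusted p = 0.041) and from 34543 ± 4119 to 27299 ± 1659 with MS023 (-0.33). The knockdown call was lost in 7 of 16 alternatives, without a filter, with the same total, without a trend and without shControl 1, 2 or 3 or shPrmt1 3 (-0.33 to -0.26, adjusted p up to 0.16), and the MS023 call in 5 of 20, without a trend and without vehicle 1 or 3 or MS023 1 or 2 (-0.32 to -0.26, adjusted p up to 0.074). Slc25a26, which carries SAM into mitochondria, rose from 265 ± 15.6 to 352 ± 31.3 with MS023 (0.41), a call lost without MS023 1 (0.36, adjusted p = 0.051). Of the small-molecule methyltransferases, none of 6 was called in the knockdown by limma, edgeR or DESeq2. Of all genes tested there, edgeR called 14.9% and DESeq2 18.7%. At an unadjusted p under 0.05 the number was 3, and the share of all genes at that cut is not given here. With MS023 3 of 7 were called: Gamt, the last enzyme of creatine synthesis, fell from 394 ± 12.9 to 259 ± 7.68 (-0.60), and Pemt, which methylates phosphatidylethanolamine, rose from 139 ± 11.1 to 187 ± 20.02 (0.43). The call of Pemt was lost in 10 of 20 alternatives, without a filter, with the replicate block, edgeR and DESeq2, and without vehicle 2 or 3, MS023 2 or 3, or GSK3368715 2 or 3 (0.36 to 0.43, adjusted p up to 0.16). The arsenic methyltransferase gene As3mt rose from 2106 ± 130 to 2776 ± 57.8 with MS023 (0.40) and to 2518 ± 74.0 with GSK3368715 (0.26), the only gene of 7 called there. The latter call was lost with only the groups compared and without vehicle 3, GSK3368715 2 or GSK3368715 3 (0.22 to 0.27, adjusted p up to 0.087).

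**Figure D4:**
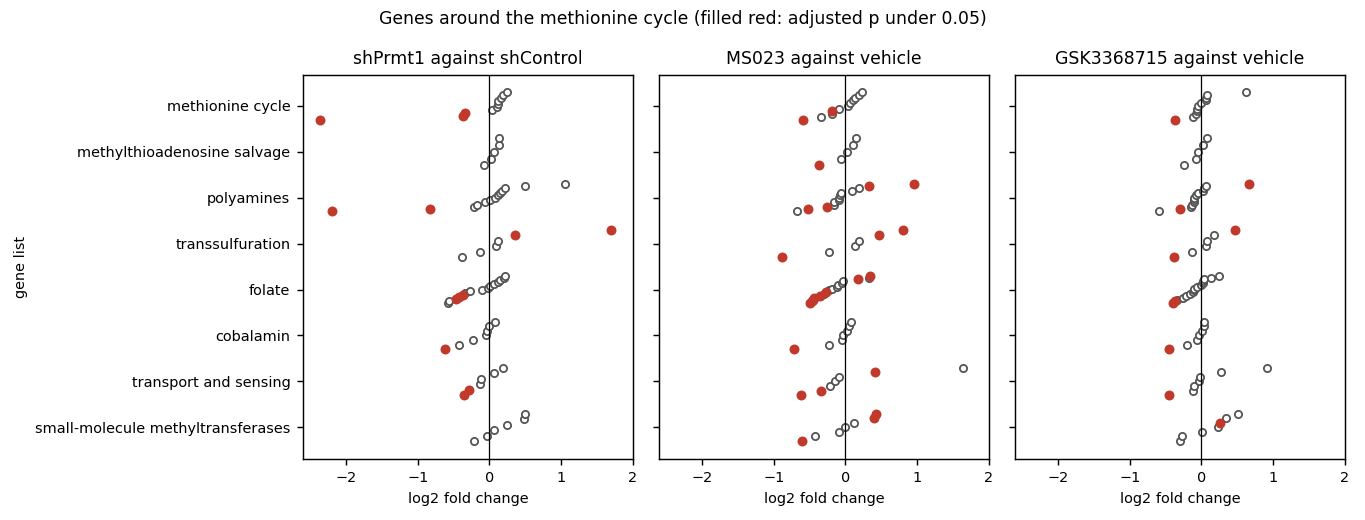
Log2 fold change (horizontal axis, the same in all panels) of each tested gene in 8 pathway lists, the members included, for the 3 comparisons. Each point is a gene, and filled red points passed an adjusted p under 0.05. In the folate list the called genes lie mostly left of 0 (3 of 3 in the knockdown, 6 of 8 with MS023 and 2 of 2 with GSK3368715), while Sqor, in the transsulfuration list, lies to the right in each. Over all genes tested, 7.5% were called higher and 7.17% lower in the knockdown. The shares were 13.7% and 14.1% with MS023 and 5.16% and 4.47% with GSK3368715.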

How the data were processed

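RNA of 15 CT26 libraries, in 5 groups of 3, was sequenced as paired-end reads after preparation with an mRNA kit. Per the labels and the study's methods, the authors quantified reads with Salmon 1.4.0 on mm10 and deposited a signal per gene, the count over the DESeq2 size factor of the library, here called normalized counts. In every library, 100% of the 34432 values were whole multiples of 1 constant within 0.001, so reads were recovered. The authors' 3 comparison tables (fold changes and p-values) were not used. The members and pathway lists were chosen with earlier results of these data known.

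Groups came from the labels. The filter kept genes that reached 10 normalized counts in 3 or more libraries of a fit, and limma 3.58.1 (R 4.3.3, lmFit, eBayes with a trend) was run two-sided on log2(normalized count + 1), with Benjamini-Hochberg adjustment over all genes tested and a threshold of 0.05. The inhibitor experiment was a single fit of 9 libraries. The knockdown and inhibitor tables were normalized separately, and a fit of 15 libraries with a mean per group served only for differences between their changes. For the sum of Ahcy and Gm4737, normalized counts were added before the log. The scripts were tested on simulated data.

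Results were recomputed with pseudocounts of 0.5 and 5, without the filter and with a minimum of 50, with each library scaled to 1 upper quartile or total, without the trend, with a block for the replicate number, with the compared groups alone, with edgeR 4.0.16 and DESeq2 1.42.0 on the recovered reads, with copies added, and without each library in turn. Those for the comparisons between treatments and for the pathway genes were added after the data were seen. Libraries of the same replicate number deviated together only weakly (r of 0.06 to 0.12 in the knockdown experiment and -0.14 to 0.11 in the inhibitor experiment). Copies were searched with BLAST 2.17.0 in GENCODE M21 transcripts, at 95% identity over 30% of the transcript. Pathway genes named are, per list and comparison, the 2 largest changes called whose higher group averaged 50 or more normalized counts, and genes called in the same direction in all 3 comparisons.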

Additional observations from a re-analysis of the deposited data

Results flagged for a closer look

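Groups of 3 libraries were too small for a test of single libraries, so what follows are differences between treatments that passed the limma test of the difference itself, as log2 values.

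The knockdown change of Ahcy minus that with GSK3368715 was -2.99 (adjusted p = 0.0052), and minus that with MS023 it was -2.54 (adjusted p = 0.010). For Gm4737 the difference from GSK3368715 was -0.30 (adjusted p = 0.029, lost in 7 of 25 alternatives), and that from MS023 was not called (-0.16, adjusted p = 0.19). For the sum of both genes, which does not depend on how reads were divided between them, it was -0.44 against GSK3368715 (adjusted p = 0.0068) and -0.29 against MS023 (adjusted p = 0.047, lost in 16 of 26 alternatives).

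In the polyamine list, the knockdown change of the antizyme gene Oaz1 differed by -0.78 from that with GSK3368715 and by -0.77 from that with MS023. That of Azin1 differed by 0.53 from that with MS023 (adjusted p = 0.011). In transsulfuration, Sqor rose further in the knockdown, by 1.23 against GSK3368715 and 0.89 against MS023, and Csad differed by 0.76 against MS023 (adjusted p = 0.012). Between the compounds, GSK3368715 minus MS023 was 0.50 for Csad and -0.30 for Gclc (adjusted p = 0.037 for each, lost in 12 and 10 of 20 alternatives). In the folate list, Tyms differed by -0.34 between the knockdown and GSK3368715 (adjusted p = 0.048). This call was lost in 18 of 25 alternatives, with adjusted p up to 0.13, among them those without any 1 library other than shPrmt1 1 and vehicle 2 (-0.36 to -0.28).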

How the results depend on the processing

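In the knockdown, the sum of Ahcy and Gm4737 kept its direction and call in all 17 alternatives, and Ahcy and Gm4737 in all 16. Of the 9 genes, 2 to 3 were called in the settings that kept all libraries and 2 to 4 with a library left out, 4 without shPrmt1 2. Of all genes tested, 8.12% to 23.3% were called in the former and 5.72% to 21.7% in the latter, the most without shPrmt1 2. With MS023, 1 of 9 became 2 with a pseudocount of 5, a minimum of 50, the replicate block, edgeR and only the groups compared, and 3 with the same upper quartile, the same total and DESeq2. Of all genes tested, 24.7% (replicate block) to 31.4% (minimum of 50) were called in these settings. Leaving out a library gave 0 (without MS023 2) to 2, where 18.6% (also without MS023 2) to 28.8% of all genes were called. The log2 fold change of the sum with MS023 lost its call without a filter (-0.17, adjusted p = 0.077), with the same upper quartile (-0.15, adjusted p = 0.060), the same total (-0.14, adjusted p = 0.084), no trend (-0.17, adjusted p = 0.073), the replicate block (-0.17, adjusted p = 0.076) and only the groups compared (-0.17, adjusted p = 0.064). It ranged from -0.21 to -0.13 with a library left out, and was called only without vehicle 3 among these. The cause was not tested.

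Values near 0 changed sign in some of the fits that left out a library. With GSK3368715, the sum ranged from -0.0599 (without vehicle 3) to 0.0100 (without vehicle 2), Mtr from -0.104 to 0.00232 (without GSK3368715 1), Mat2b from -0.00575 (without GSK3368715 2) to 0.107 and Ahcyl2 from -0.0150 (without GSK3368715 3) to 0.146. With MS023, Ahcy ranged from -0.37 (without vehicle 3) to 0.55 and was -0.09 without MS023 1. For the knockdown against MS023, 1 of 9 became 2 without shPrmt1 2, where 8.5% of all genes were called. For the knockdown against GSK3368715, 2 of 9 became 1 without a filter and ranged from 1 to 2 with a library left out, and Gm4737 was the gene lost. Of all genes, 2.08% were called without a filter and 2.49% to 4.9% with a library left out.

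The number of pathway genes called ranged from 5 to 19 in the knockdown (11 as reported, 19 with the replicate block, 5 to 6 without a shControl library), from 16 to 27 with MS023 (24) and from 4 to 12 with GSK3368715 (10, and 4 without vehicle 3). Over all genes it ranged from 652 to 2671 (1684 as reported), from 2409 to 4026 (3625) and from 586 to 1810 (1254). Between the compounds it ranged from 2 to 377 (67), and the calls of Csad and Gclc were lost in 12 and 10, respectively, of 20 alternatives. Libraries of the same replicate number deviated together only weakly, with r of 0.06 to 0.12 in the knockdown experiment and -0.14 to 0.11 in the inhibitor experiment. These values do not settle whether the numbers mark pairs. With the block, the number of genes called rose to 2671 in the knockdown and fell to 3219 with MS023 and 860 with GSK3368715. Ahcy had as few as 127 reads in a shPrmt1 library, and in that group its SD was 9.98% of the mean. With vehicle its SD was 52.2% of the mean, against 4.93% for the sum of Ahcy and Gm4737. The reason for this spread was not tested. All groups had 3 libraries.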
